A study of Drosophila melanogaster with 2 samples.

Results

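The 10 genes vas, nanos, aub, piwi, AGO3, tud, osk, pgc, gcl and bgcn were grouped as germ plasm and piRNA genes of Drosophila melanogaster. Of them, bgcn acts in germline differentiation instead. All were chosen by name. Among the 13945 protein-coding genes of the 6 main chromosome arms (2L, 2R, 3L, 3R, X and 4), 10 of 10 were found. The study mapped where a CG9932-eGFP fusion protein sat on DNA in whole embryos aged 8 to 24 h, by chromatin immunoprecipitation followed by sequencing (ChIP-seq) with an antibody against GFP. CG9932 is a zinc finger protein. The flies were of a strain labelled CG9932-GFP, which carries the tagged copy as a transgene, and the 2 libraries are biological replicates 1 and 2 of that 1 group. Other label fields differ: the antibody field names CG9932 rather than GFP, and the age field holds a number of hours far beyond embryonic life, so the antibody and age are given as the description and source labels have them. There was no second group to compare with. The fusion protein was recovered from all cells of the embryo together, so a peak does not say in which cells the protein sat, and germ cells are a small minority of an embryo.

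Germ plasm is the cytoplasm at the posterior pole of the egg that makes the cells enclosing it become germ cells. Oskar protein nucleates it, Vasa and Tudor are built into it, and the RNAs of nanos, pgc and gcl are stored there for the germ cell precursors. The piRNA pathway protects the germ line from transposons: Piwi, Aubergine and Argonaute 3 are the proteins that carry piRNAs, small RNAs that guide them to transposon RNA. Much of the RNA and protein of these genes in an early embryo comes from the mother.

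The deposited measurements were peaks, each with a summit (the base where recovered DNA piled up most) and a signal from the authors' peak caller. The conservative set held 6829 peaks that ranked alike in both replicates, and the optimal set, a longer list from both replicates, held 7328. Each replicate also had a thresholded set of its own, 6036 peaks for replicate 1 and 4549 for replicate 2. Of the 6790 conservative peaks on the arms, 58.8% overlapped a peak of both replicates' own sets. A set is what passed a cut on the irreproducible discovery rate, or IDR, which is low where the rank of a peak repeats well. The lowest IDR score was the same in the conservative and optimal sets. The ranked lists, long lists of candidate peaks from which the sets were drawn, were read as well. Signal is on the scale of its own list, so it was compared between genes within a list and never between lists. Read depth is unknown, as the lists hold no read counts. Positions below are distances in bp from the gene's nearest transcription start site (TSS), negative upstream.

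Of the 10 genes, 4 had a conservative summit within 500 bp of a TSS: vas, nanos, piwi and bgcn. That is 40.0% of the genes, beside 29.9% of all protein-coding genes. With only 10 genes these shares are near each other, and the count is not a result about the group. The same 4 genes had a summit in the gene or up to 2 kb upstream, which 40.0% of all protein-coding genes had. The bound genes span several roles: a germ plasm helicase (vas), a stored translational repressor (nanos), a nuclear piRNA effector (piwi) and a factor that drives germline stem cell daughters to differentiate (bgcn). The unbound genes likewise include germ plasm genes (osk, tud, pgc, gcl) and piRNA genes (aub, AGO3). The 4 bound genes held 8 conservative summits in all.

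The stretches printed here surround the conservative summits of vas, nanos and piwi, on dm6, read 5′ to 3′ along the strand of the named gene. They are shown because the summits differ in base composition and in the words they hold. Capitals mark exact matches, on either strand, to CGATA (the core of the BEAF-32 insulator protein's motif), GAGAG (the word bound by GAGA factor) or CAGCTG (an E-box). TATCG and CTCTC are the same words read on the other strand. Stretches were ended where an exon began, and for nanos, whose summit lies in a 5′ UTR of a neighbour, only 30 bases are given.
vas promoter, chr2L:15061455-15061655, plus strand, summit at base 101: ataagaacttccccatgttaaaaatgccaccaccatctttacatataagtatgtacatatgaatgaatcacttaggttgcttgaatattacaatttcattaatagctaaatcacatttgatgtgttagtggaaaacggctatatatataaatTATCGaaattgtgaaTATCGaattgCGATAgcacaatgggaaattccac
nanos, chr3R:19156847-19156876, plus strand, summit at base 21: cgtgCGATAgttcgttttgtcggtaatccg
piwi promoter, chr2L:10987533-10987733, minus strand, summit at base 101: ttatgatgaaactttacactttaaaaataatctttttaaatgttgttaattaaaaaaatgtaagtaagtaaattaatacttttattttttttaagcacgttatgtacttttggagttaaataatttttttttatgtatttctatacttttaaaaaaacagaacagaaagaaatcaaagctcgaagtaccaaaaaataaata
piwi intron, chr2L:10986206-10986406, minus strand, summit at base 101: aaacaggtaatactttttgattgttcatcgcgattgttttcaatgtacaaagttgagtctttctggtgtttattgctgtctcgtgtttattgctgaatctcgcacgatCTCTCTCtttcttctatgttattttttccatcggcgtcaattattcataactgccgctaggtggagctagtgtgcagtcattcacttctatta
vas intron beside the vig start, chr2L:15068079-15068183, plus strand, summit at base 5: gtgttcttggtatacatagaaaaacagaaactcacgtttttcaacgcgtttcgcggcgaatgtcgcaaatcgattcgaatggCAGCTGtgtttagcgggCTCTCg
upstream of vas beside the TfIIS start, chr2L:15060758-15060903, plus strand, summit at base 46: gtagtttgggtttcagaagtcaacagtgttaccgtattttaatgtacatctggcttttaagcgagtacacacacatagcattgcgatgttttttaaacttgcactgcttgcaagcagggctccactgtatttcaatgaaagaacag

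The piwi promoter stretch is almost all A and T. Its window of 201 bp around the summit held 18.4% G and C, the lowest of all 6790 conservative summit windows on the arms, and the next lowest held 18.9%. The median window held 38.3%. The vas promoter window, at 30.8%, was also on the low side, and 15.9% of all windows held as little or less. The nanos window, at 56.2%, lay near the top, and 94.3% of all windows held as little G and C or less. The remaining windows of these genes held from 37.8% in the piwi intron to 50.7% at the vig start. The bound genes thus had no base composition in common.

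The maps of the bound loci place each summit among the neighbouring genes. The 8 conservative summits in the 10 genes or their 2 kb upstream fell on 4 genes, and 3 of these genes held more than 1. For 5 of the 8 summits the nearest TSS was that of another gene. Over all protein-coding genes, 36.5% of such pairs of gene and summit had another gene's TSS nearer. Of the 4 summits at promoters, those of nanos and piwi lay nearer to a neighbour, beside 25.8% of all promoter pairs. Of the 4 summits away from promoters, 3 lay within 500 bp of another gene's TSS, and only the piwi intron summit had no start so close. No like share over all genes was taken for summits away from promoters, so that count is not a result about these genes.

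**Figure D1:**
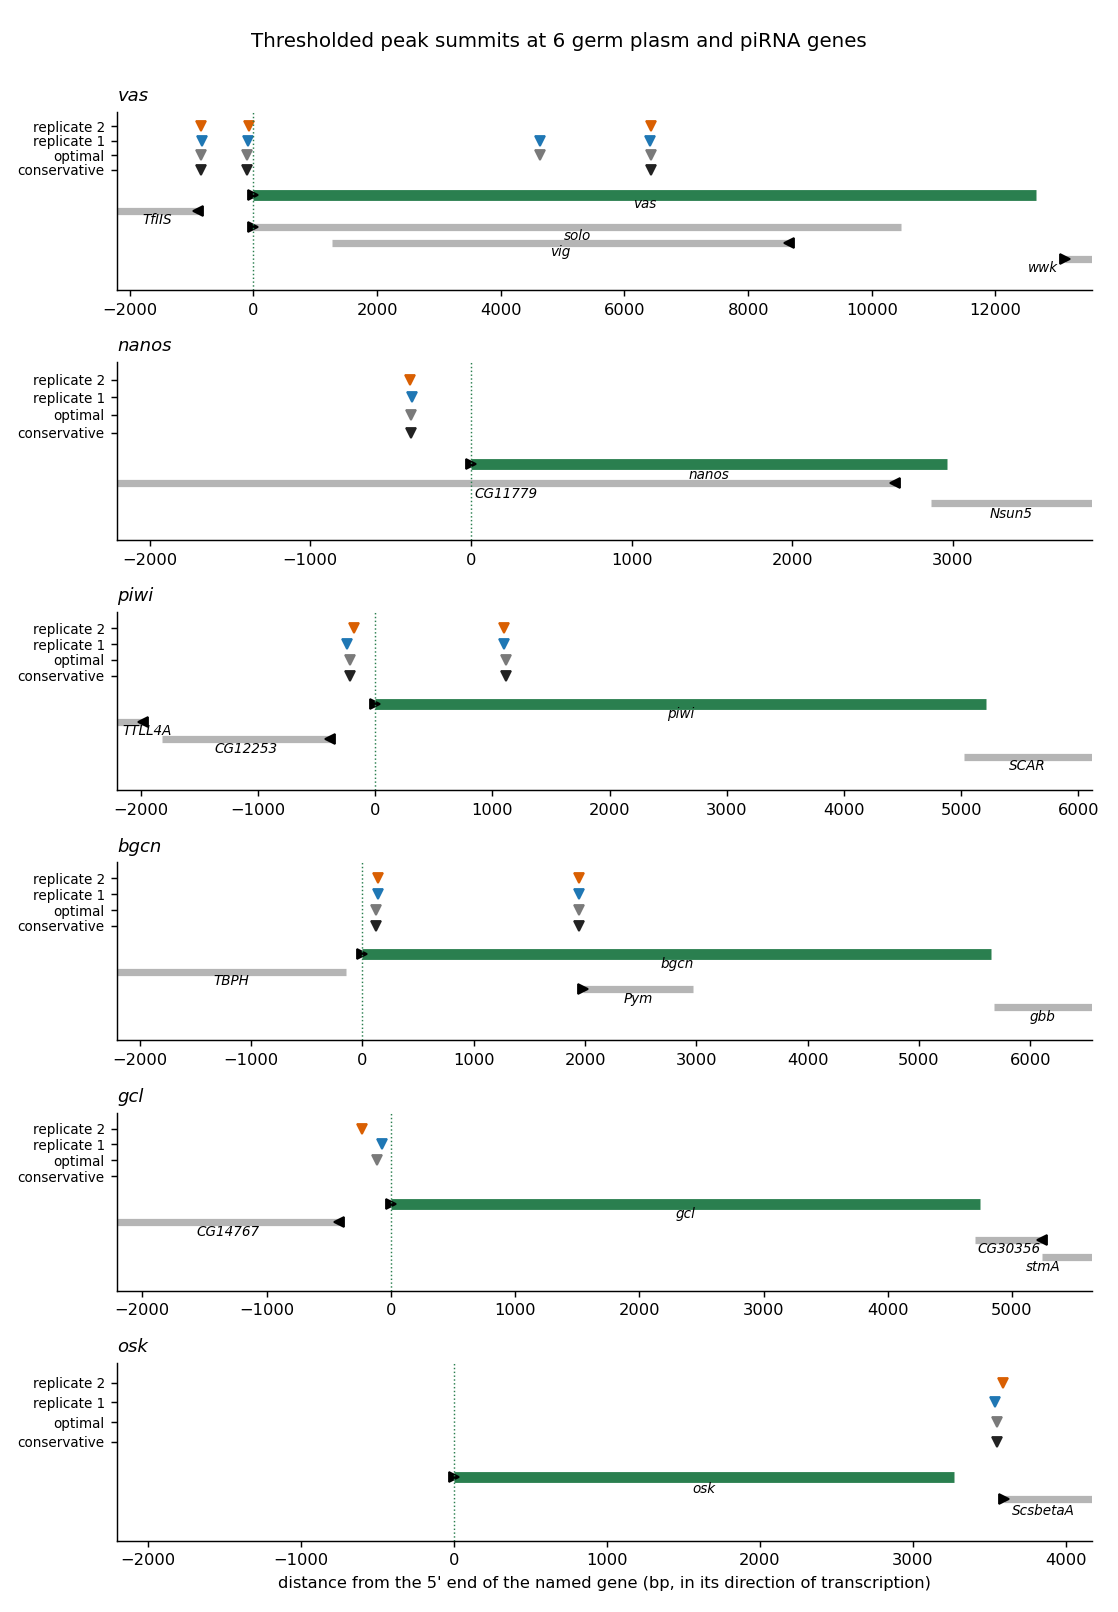
Positions of thresholded summits at vas, nanos, piwi, bgcn, gcl and osk, against distance in bp from the 5′ end of each gene in its direction of transcription. Triangles are summits in the conservative, optimal and replicate sets, the green bar is the named gene, grey bars are neighbouring protein-coding genes, and black arrowheads mark their 5′ ends; starts inside a gene, as in vig and CG11779, have no arrowhead. The gcl row has no conservative summit but 3 others within 500 bp of its start, and the osk summits lie beyond its 3′ end, at ScsbetaA.

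Vasa is a DEAD-box RNA helicase of the germ plasm and of the perinuclear granules where piRNAs are made. The vas gene (FBgn0283442, chr2L:15061656-15074311, plus strand) had 3 conservative summits. The promoter summit lay at -101 with a signal of 274 in the conservative set, and at -86 (signal 160) in replicate 1's own set and -72 (signal 113) in replicate 2's. The replicates thus placed it 14 bp apart, close to the median of 15 bp over 4190 overlapping peak pairs. It is shared by construction with solo, which has the same TSS as vas and codes for a protein of meiotic chromosome cohesion. Among all genes with a conservative promoter summit, 48.1% had a promoter signal at least as high as that of vas, so it stood at the middle.

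The other vas summits belong by position to neighbours. The summit at -853, with a signal of 152, lay 46 bp upstream of the TSS of TfIIS, a transcript elongation factor gene read in the opposite direction. The summit at +6427, with a signal of 204.5, lay in an intron of vas and 5 bp upstream of a TSS of vig, a gene nested in vas on the other strand whose product is found with the RNA interference machinery. Both were present in each replicate's own set, at signals of 102 and 99.1 in replicate 1 and of 62.2 and 116 in replicate 2. In replicate 2 the vig summit was the strongest at the locus, at 116 beside 113 for the vas promoter, whereas in replicate 1 the vas promoter was, at 160. A further intronic summit at +4632, 1790 bp downstream of a TSS of vig, passed in the optimal set (signal 84.9) and in replicate 1 (67.4). It had no counterpart in replicate 2's set.

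The nanos gene encodes an RNA-binding repressor of translation that patterns the posterior embryo and keeps germ cell precursors from dividing and differentiating too early. It (FBgn0002962, chr3R:19157238-19160202, plus strand) had 1 conservative summit, at -371. Its signal of 890 ranked 326 of 6829 in the conservative set, and 9.25% of bound genes had a promoter signal at least as high. It was the strongest of the 10 genes in every list: 532 in replicate 1, at -368, and 347 in replicate 2, at -377. These summits lay 9 bp apart. The summit was also the farthest from its gene among the 4 promoter summits, and 7.47% of all bound genes had theirs as far away.

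The nanos peak cannot be given to nanos alone. Its summit lay 55 bp upstream of a TSS of CG11779, a gene on the opposite strand that overlaps most of nanos, and at the same time in the 5′ UTR of a longer CG11779 transcript. The closest TSS of CG11779 stands 221 bp upstream of the nanos TSS, so the peak lies among starts that point away from nanos. The remaining 4 ranked summits at nanos had signals of 27.1 to 62.2 and an IDR of 0.347 or more, so none other approached the set.

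Piwi is the nuclear piRNA-binding protein that silences transposon transcription. The piwi gene (FBgn0004872, chr2L:10982205-10987420, minus strand) had a promoter summit at -213 and a summit at +1114 in an intron. The promoter signal was 228 in the conservative set, 131 in replicate 1 and 100 in replicate 2. The intron signal was 183, 107 and 76.5 in the same lists, so the promoter peak was the higher of the pair in each. Replicate summits at the promoter lay at -237 and -179, or 58 bp apart, and 14.1% of pairs lay as far or farther apart. Those in the intron lay 1 bp apart. The promoter summit stood between piwi and CG12253, a gene read the other way from a TSS 386 bp upstream. The TSS of CG12253 was the nearer in the conservative set, at 173 bp, and in replicate 1, at 149 bp, and piwi was the nearer in replicate 2, at 179 bp.

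The intron summit of piwi had no other TSS near it and was the only conservative summit of the 10 genes that was neither at the gene's own promoter nor at a neighbour's. Its peak overlaps the run CTCTCTC printed above, which starts 8 bp past the summit. The run holds GAGAG on the other strand in a pair of overlapping matches. The promoter and intron summits were the only ranked summits at piwi in each of the 3 ranked lists read, so the gene had no weaker candidates.

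The bgcn product partners Bam in the switch of germline stem cell daughters to differentiation. The bgcn gene (FBgn0004581, chr2R:23853270-23858921, minus strand) had a summit at +119 in its 5′ UTR and another at +1945 in an intron. The first had a signal of 368 in the conservative set, 245 in replicate 1 and 117 in replicate 2, and 35.2% of bound genes had a promoter signal at least as high. The second had 396, 291 and 109. The intron peak was thus the higher in the conservative set and in replicate 1, and the lower in replicate 2. It lay 40 bp upstream of the TSS of Pym, a gene nested in bgcn whose product acts on the Mago and Y14 proteins of the exon junction complex, and the replicates placed its summit on the same base. The bgcn start itself was the nearest TSS of the first summit, and the nearest TSS of another gene, that of Pym, stood 1985 bp from the bgcn TSS.

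The gcl gene (FBgn0005695, chr2R:8724258-8728999, plus strand) encodes germ cell-less, which is needed for pole cells to form. It was outside the conservative set but at its promoter in the other sets. Its summit lay at -111 with a signal of 237 in the optimal set, at -73 with 135 in replicate 1 and at -230 with 94.0 in replicate 2. The replicate summits were 157 bp apart, and 6.35% of overlapping pairs were as far apart. The gcl peak had an IDR score of 1000 in the optimal set. In the conservative ranked list the same peak had a signal of 237 but a score of 71 and an IDR of 0.672. Of the 2398 ranked peaks with at least that signal, 74 (3.09%) were not in the conservative set, and only 3 of these were in the optimal set.

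With gcl counted, 5 of 10 genes had a promoter summit in the optimal set (31.4% of all protein-coding genes), 5 in replicate 1's own set (30.1%) and 5 in replicate 2's (23.9%). The same 5 had one in both replicates' own sets, which 22.9% of all protein-coding genes had. The combination seen at gcl, a promoter summit in the optimal set and in both replicates' own but none in the conservative set, was found for 7 protein-coding genes, or 0.0502%. CG14767 was another of the 7, as it shares the peak: it is read away from gcl from a TSS 419 bp upstream, which was the nearer start in replicate 2, at 189 bp. The others were sfl, Tsp42Eo, Vps8, CG8281 and AMPdeam.

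**Figure D2:**
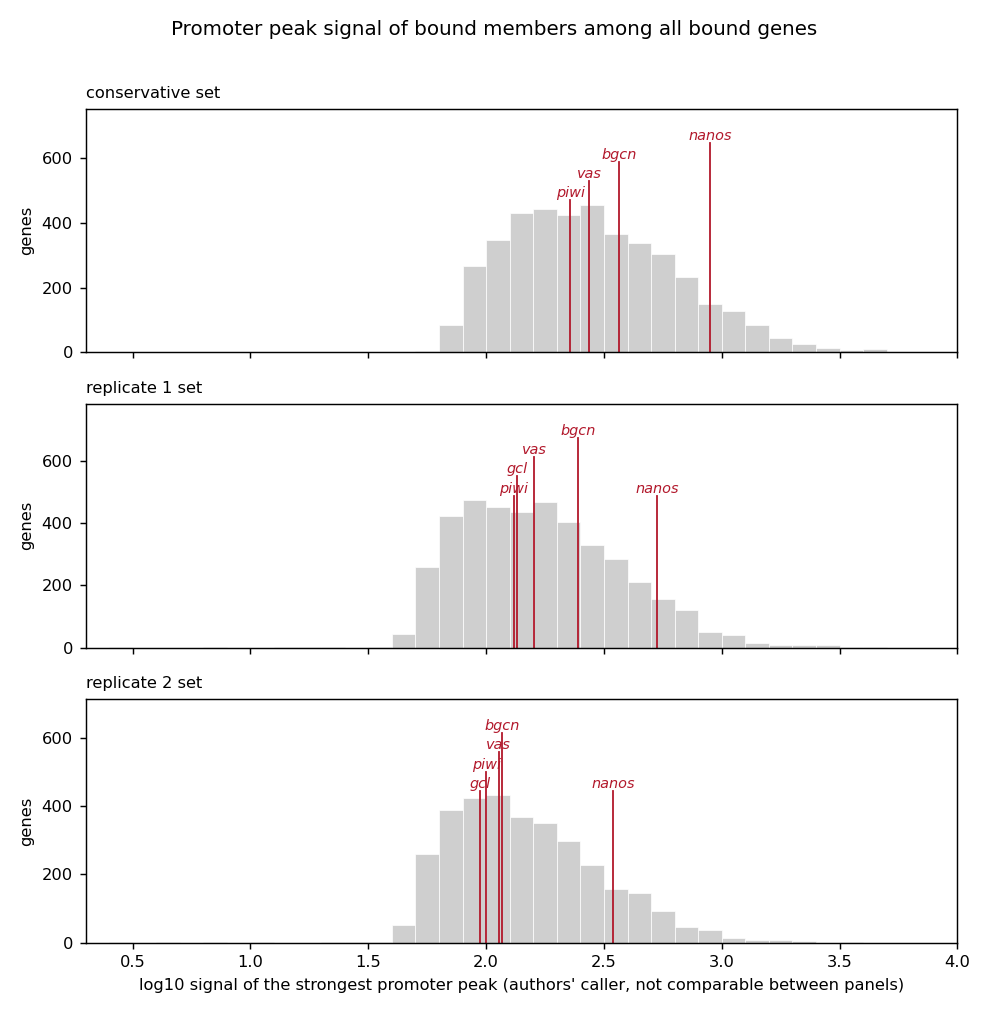
Histograms of the signal of the strongest promoter peak (log10, horizontal axis) over all genes bound at the promoter (number of genes, vertical axis) in the conservative set, replicate 1 and replicate 2, with the bound germ plasm and piRNA genes as red lines. In the 3 panels nanos stands to the right of the other bound genes of the group, which lie in the body of each distribution; the panels have separate signal scales.

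The strongest promoter signals of the bound genes of the group were otherwise ordinary. Their median was 321 over 4 genes in the conservative set, beside 264 over all 4163 genes bound there. In replicate 1 it was 160 over 5 genes beside 158, and in replicate 2 it was 113 beside 132. The order nanos, bgcn, vas was the same in the conservative and both replicate lists, with piwi, and gcl where it was listed, below. In replicate 2 the signals of bgcn (117) and vas (113) were nearly equal, and in replicate 1 so were those of gcl (135) and piwi (131), which changed places in replicate 2 at 94.0 and 100. With 1 value a list, no spread was available for these small gaps.

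The genes without a thresholded promoter summit in any set were osk, pgc, AGO3, aub and tud. Oskar protein assembles the germ plasm. The osk gene (FBgn0003015, chr3R:8935126-8938395, plus strand) had 7 ranked summits, of which the strongest lay at +176 with a signal of 58.1 and an IDR of 0.453. The nearest thresholded summit lay past its 3′ end, 47 bp upstream of the TSS of ScsbetaA, a succinyl-CoA synthetase subunit gene. That summit had a signal of 154 in the conservative set, 92.3 in replicate 1 and 65.7 in replicate 2. The pgc gene (FBgn0016053, chr2R:22330200-22332813, plus strand), whose small product holds back transcription in pole cells, had 5 ranked summits. The strongest had a signal of 55.0 and an IDR of 0.0848, and lay at -785 from an internal TSS. The promoter summit of pgc at +152 had a signal of 16.3 and an IDR of 0.826.

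**Figure D3:**
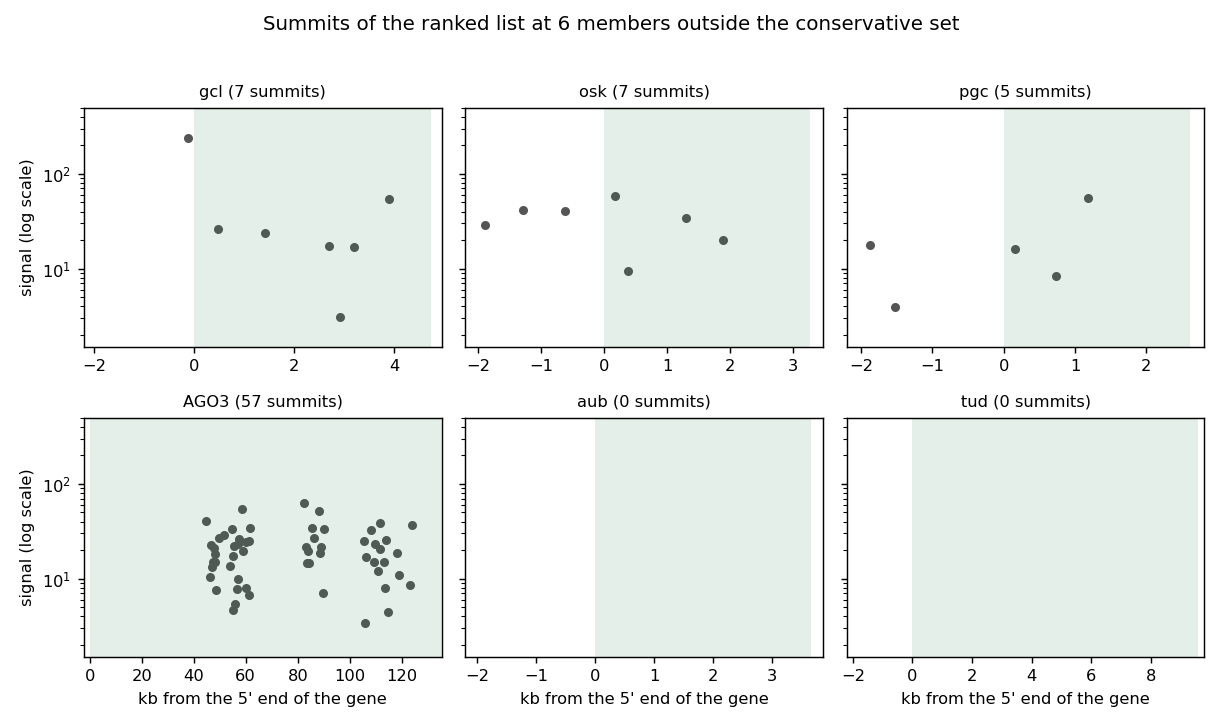
Summits of the conservative ranked list in and 2 kb upstream of gcl, osk, pgc, AGO3, aub and tud, by distance in kb from the 5′ end (horizontal axis) and signal (vertical axis, log scale), with the gene shaded. The gcl promoter peak, at 237, stands above all others, AGO3 has 57 weak summits that begin far inside the gene, and the aub and tud panels are empty.

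AGO3 (FBgn0250816, chr3L:23554593-23689640, plus strand), the partner of Aubergine in the ping-pong cycle that amplifies piRNAs, is a gene of 135048 bp. It had 57 ranked summits in the conservative ranked list, 51 in replicate 1's and 66 in replicate 2's, and none passed a threshold. The strongest in the conservative ranked list had a signal of 63.0 and an IDR of 0.329. Around its 5′ end, no ranked summit lay in a stretch of 63.7 kb. Bases marked as repeats in the reference made up 32.8% of that stretch, beside 20.1% of all arms, and the part they play in the empty stretch was not tested.

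Ranked summits were dense, with a median spacing of 666 bp between neighbours on the arms, and most genes held some. For 14.0% of all protein-coding genes no ranked summit lay in the gene or 2 kb upstream, and the same held for 2 of the 10 genes, aub and tud. Aubergine is the main cytoplasmic piRNA-binding protein of the germ line, and its gene (FBgn0000146, chr2L:10997819-11001476, minus strand) lay in a stretch of 20.4 kb without a ranked summit. Of the spacings between neighbouring ranked summits, 0.409% were as large. Long spacings cover more of the arms than their share by number, so this is not a share of genes. The stretch began at the piwi promoter summit and held 5 whole genes: aub, CG12253, TTLL4A, lectin-33A and RpL9, a ribosomal protein gene. On the other side of piwi no ranked summit lay in 47.1 kb, so the piwi pair stood alone in its neighbourhood. Repeat bases made up 30.8% of those 47.1 kb, beside 20.1% of all arms, and the part they play was not tested. The spacing around aub was 19705 bp in replicate 1's ranked list and 21579 bp in replicate 2's.

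Tudor protein binds Aubergine and holds germ plasm granules together. The tud gene (FBgn0003891, chr2R:21183322-21192913, plus strand) was the only whole gene in a stretch of 15.3 kb without a ranked summit. By number, 0.726% of spacings were as large, which again is not a share of genes. The spacing was 15672 bp and 15536 bp in the ranked lists of replicates 1 and 2. Repeat bases made up 9.08% of the tud stretch, and the aub stretch also held a smaller share than all arms; neither stretch held unknown bases. For these genes the absence of a summit was therefore seen in each ranked list, whereas osk, pgc and AGO3 had weak candidates.

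Across the 8 member windows of 201 bp, 5 words were searched on both strands, and 8 windows are few for a share. CGATA occurred in 3 of 8 windows, beside 32.9% of all 6790 conservative windows and 36.6% of all 19253 promoters of the same length. At the vas promoter its 3 matches began 52, 67 and 77 bp past the summit, on the side of the TSS. At nanos a pair of matches flanked the summit, from -16 and from +22, and the window at Pym held 3. TATCGATA, the DRE element of the factor Dref, which contains CGATA on both strands, occurred at Pym only, 1 of 8 beside 5.43% of all windows. GAGAG occurred in 3 of 8 (23.6% of all windows and 25.3% of promoters), at vig, the piwi intron and Pym. CAGCTG occurred in 2 of 8 (10.5% of all windows), at nanos and vig. GGTCACACT, part of the core promoter element Motif 1, occurred in 0 of 8 (2.37% and 2.48%), and it was present at the optimal summit of gcl, from 21 bp past it. The promoter windows of piwi and bgcn and the window at TfIIS held none of the 5 words. Most of the 8 summits lay within 500 bp of a TSS, so windows at promoter summits are a closer comparison. Of 3467 such conservative windows, 44.4% held CGATA, 10.3% TATCGATA, 22.5% GAGAG, 13.2% CAGCTG and 4.47% GGTCACACT. These are matches to letters, not mapped sites.

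Beyond the 10 genes, 7 lists of 72 further germ plasm, germ cell and piRNA genes were read in the same way. Unbound here means without a conservative promoter summit, and armi, Boot, del, nxf2 and BicD had a conservative summit elsewhere in the gene or 2 kb upstream. A conservative promoter summit was present at 28 of the 72 (38.9%, beside 29.9% of all protein-coding genes), with a median signal of 234 beside 264. In the other sets the count was 33 (optimal, beside 31.4% of all protein-coding genes), 35 (replicate 1, beside 30.1%), 22 (replicate 2, beside 23.9%) and 21 (both replicates' own, beside 22.9%). For 20 of the 28 genes the listed gene's TSS was the nearest to the summit. Over all protein-coding genes, 25.8% of promoter pairs of gene and summit had another gene's TSS nearer, so this count is not a result about the lists. The germ plasm assembly list had 9 of 18 bound. Its strongest were orb, whose product regulates translation of localised RNAs (857, nearest to Cdc16), tsu, the Y14 protein of the exon junction complex (660, at -31), and faf, a deubiquitinase (476). BicD and bru1 had no conservative promoter summit, though BicD had one in the optimal set and in replicate 1's own. The partner of tsu, mago, was bound at -8 with a signal of 119 and had no promoter summit in replicate 2's own set.

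In the list for germ cell formation and translational control 4 of 6 were bound, beside 29.9% of all protein-coding genes. The bound genes of the list were smg (354, nearest to CG5087), brat (316) and pum (243), which encode RNA-binding repressors, and Cul3 (102). Cul3 is the ubiquitin ligase subunit that works with germ cell-less. Cul3 had no promoter summit in replicate 2's own set. Cdk9 and CycT, the kinase subunits that Pgc protein blocks, were not in the conservative set, and CycT had a promoter summit in replicate 1's own. Of the genes for differentiation and sex, 1 of 6 was bound, Sxl, the master switch of female sex determination (253, at +367), while bam and mei-P26 were not, though mei-P26 had a promoter summit in the optimal set and in replicate 1's own. Of the genes for primordial germ cell migration, 0 of 4 were bound, Tre1 among them, and wun2 was the only gene of the 72 with no ranked summit. These lists are short, and their counts are not results about gene function.

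**Figure D4:**
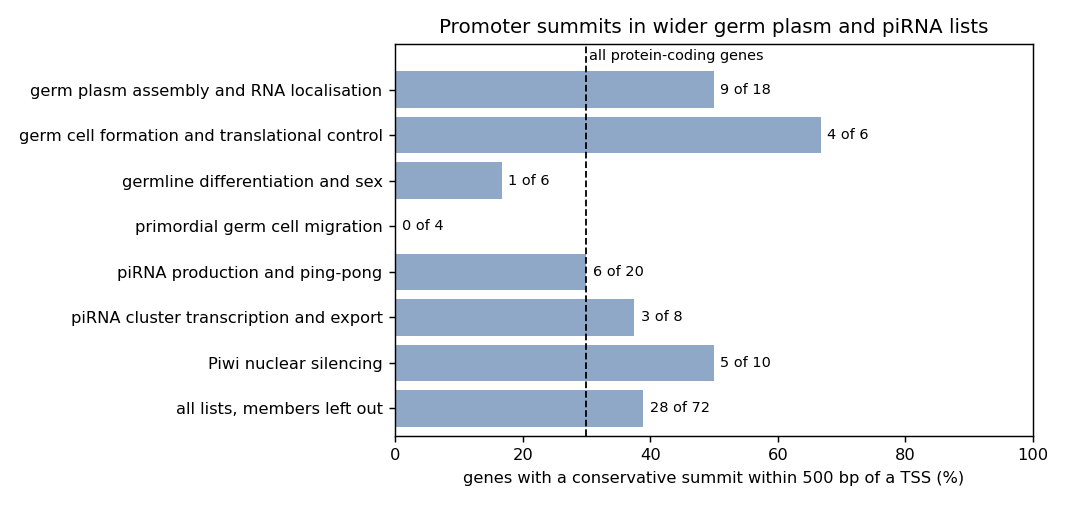
Share of genes with a conservative promoter summit (horizontal axis, %) in 7 lists of germ plasm, germ cell and piRNA genes with the 10 genes left out, and in all lists together. Counts stand beside the bars and the dashed line is the share of all protein-coding genes, 29.9%; most lists hold few genes, from 4 to 20.

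The genes of piRNA production had 6 of 20 bound, beside 29.9% of all protein-coding genes. The strongest was papi, which encodes a Tudor-domain protein of mitochondria, where piRNAs are trimmed: its summit at -302 had a signal of 1911, rank 61 in the conservative set, and 1076 and 835 in the replicates. The next were spn-E (267) and squ (226, a TSS shared with grp), and armi and BoYb were unbound. Of the genes that transcribe and export piRNA precursors, 3 of 8 were bound. They were cuff (421), Nxf3 (284) and Hel25E (112), and each summit lay nearer to a neighbour's TSS, those of CG13185, Meics and Lam. Hel25E had no promoter summit in replicate 2's own set. Boot and del were unbound. Of the genes for nuclear silencing by Piwi, 5 of 10 were bound, led by the gene of heterochromatin protein HP1a (362, nearest to Ssb-c31a), ctp (327) and wde (211), while egg and nxf2 were not. Replicate 2's own set held no promoter summit of wde, and egg had one in the optimal set and in replicate 1's own. The share bound in each list rests on few genes.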

How the data were processed

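The material was ChIP-seq of 2 biological replicates of 1 group, deposited as 8 peak lists on dm6, of which 7 were used here. Per the deposited file descriptions, each replicate's lists came from its own alignments and a control alignment, and the 2 joint sets from the alignments of both. For aligner and caller: not given in the sources used here. No control sample was analysed here. The authors deposited for each peak an IDR score (a whole number, at least 830 in every set, which the deposited -log10 values of the IDR put at an IDR of 0.0100), a signal from their caller, and a summit position. Some ranked peaks past that score are in no set, and the rule for this is not known. The series files hold 30 further value columns that were not used.

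Summits were counted from 1 and assigned to genes of Ensembl release 115 (BDGP6.54, the dm6 assembly), with sequence from RefSeq. Promoter binding meant at least 1 summit no more than 500 bp from an annotated TSS of the gene. Spacings and repeat shares used the ranked lists and the lower-case bases of the reference. With 1 group and 2 replicates no test over samples exists, so counts stand beside the share of all protein-coding genes. The genes and the 7 wider lists (82 symbols, of which 80 matched by symbol and 2 by synonym) were chosen with earlier results of these data known. Named genes were the 10 genes, their neighbours at summits, and per wider list the 3 with the strongest promoter peak and the first 2 unbound in alphabetical order, of which 1 gene is not reported here; mago, Cul3, RpL9 and the genes sharing the pattern of gcl were added after their values were seen. Alternatives were promoters of 200 and 1000 bp, upstream stretches of 0 and 5 kb, the optimal set, each replicate's own set, peak centres, any overlap of at least 1 bp, the stronger peaks, the gene's 5′ end alone and motif windows of 50 bp. Scripts ran in Python 3.11.15 (numpy 2.4.6, matplotlib 3.10.9, pandas 2.3.3), and the assignment was tested on simulated data.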

Additional observations from a re-analysis of the deposited data

How the results depend on the processing

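The 4 genes with a conservative promoter summit became 2 with a promoter of 200 bp (vas and bgcn; 23.2% of all protein-coding genes), since the summits of nanos and piwi lie farther out. The count stayed at 4 with a promoter of 1000 bp (33.5% of all genes), peak centres (29.9%), any overlap of the peak (31.5%), the 5′ end alone (27.5%) and the stronger peaks (21.6%). It was 5 in the optimal set (31.4%), in replicate 1's own set (30.1%) and in replicate 2's own set (23.9%), with gcl added each time. For a summit in the gene or upstream, the count was 3 with no upstream stretch (nanos lost, 16.4% of all genes). With 5 kb it was 6 (tud and osk added, 49.1%). The longer stretch also holds the TSS of Pu, 4203 bp upstream of tud, and that of pyd, 3230 bp upstream of osk. The added summits thus cannot be given to tud or osk alone. The count in the gene or 2 kb upstream was 5 in the optimal set (41.8%), in replicate 1's own set (38.8%) and in replicate 2's (32.2%). Of the 72 further genes, from 21 (promoter of 200 bp, 23.2% of all genes; stronger peaks, 21.6%) to 37 (promoter of 1000 bp, 33.5%) were bound over all alternatives. In the replicates' own sets the counts were 35 (replicate 1, 30.1%) and 22 (replicate 2, 23.9%). CAGCTG was found in 0 of 8 windows of 50 bp either side, and the other words in as many windows as before or 1 fewer. In the own sets of replicates 1 and 2 the promoter summit lay at -86 and -72 for vas, and at -368 and -377 for nanos. For piwi it lay at -237 and -179, and for bgcn at 144 and 140. No paired analysis was possible because the samples form 1 group. The lists hold no reads, so precision rests on the number of genes and no depth can be set against an absent peak. No fold, test or spread between replicates exists for any signal.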
